A study of Mus musculus with 3 samples.

Results

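The genes described here encode the pore-forming subunits of AMPA and kainate receptors, the ionotropic receptors that carry fast glutamate transmission. They are the 4 AMPA subunit genes Gria1 to Gria4 and the 5 kainate subunit genes Grik1 to Grik5, taken by name. All 9 were found among the 32285 genes of the count table, and all 9 passed the minimum counts used below. Their transcripts were followed in the 592 nuclei that the authors annotated as neurons, out of 603 nuclei in all. Nuclei were grouped by the authors' 5 clusters, numbered 0 to 4, and by library.

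Nuclei carrying KASH-GFP, a green fluorescent protein anchored at the nuclear envelope, were sorted from mouse tissue dissected as the lateral habenula (LHb). The labels describe the sorted cells as neurons of the BNST and LHb, where BNST stands for the bed nucleus of the stria terminalis. The groups were mothers (sexually experienced females), virgin females and virgin males, and KASH-GFP was carried by the sorted nuclei of all 3. The sources used here do not state genotype, strain, age, time since birth or the way KASH-GFP reached the neurons. Mice were pooled 3 to a group, with 1 library per group, so a difference between libraries has no replicate check. No test between groups was made.

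The libraries held 201 (mothers), 187 (virgin females) and 204 (virgin males) neuronal nuclei, at median depths of 11898, 13181 and 9414 UMIs. A UMI (unique molecular identifier) marks 1 captured transcript, and levels are given as UMIs of a gene per 1000000 UMIs (CPM) of the same nuclei. All 4 neuronal markers had UMIs in every cluster, with a summed level of 16973 to 23456 CPM over clusters and libraries. The summed level of 6 thalamic markers was 6786 to 7418 CPM in cluster 0, 7853 to 8544 in cluster 2 and 10358 to 10994 in cluster 3. It was 1951 to 2309 CPM in cluster 1 and 1000.2 to 1812 in cluster 4. The summed level of 6 LHb markers was 820.5 to 978 CPM in cluster 0, 924 to 1292 in cluster 2 and 825 to 1487 in cluster 3, beside 1473 to 2584 in cluster 1 and 1641 to 1906 in cluster 4. Of these 6, Pou4f1 had no UMI in clusters 0, 2 and 3, and Gpr151 had none in cluster 3. Clusters are therefore called by number. No barcode occurred more than once among the 603 nuclei.

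AMPA and kainate receptors are assemblies of subunits around a central pore, and the subunit mix sets conductance, kinetics and calcium permeability. AMPA receptors carry most fast excitatory current, including that which drives LHb neurons. Kainate receptors act both after and before the synapse, and their subunits Grik4 and Grik5, the high-affinity subunits, form channels only together with Grik1, Grik2 or Grik3. A single codon in the pore loop, the Q/R site, encodes glutamine in the genome. The enzyme ADAR2, the product of Adarb1, edits it to arginine in RNA of Gria2, and in part of the RNA of Grik1 and Grik2, which lowers calcium permeability.

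The pore-loop codons are shown because the same genomic glutamine stands in all 9 genes although only some are edited. Each line gives coding-strand sequence, 5′ to 3′, from GRCm38 with the GENCODE annotation, with the Q/R-site codon in capitals:
Gria1: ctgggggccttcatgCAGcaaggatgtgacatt
Gria2: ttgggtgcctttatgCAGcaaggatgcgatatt
Gria3: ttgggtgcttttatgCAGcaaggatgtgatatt
Gria4: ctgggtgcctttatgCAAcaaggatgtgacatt
Grik1: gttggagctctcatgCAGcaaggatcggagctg
Grik2: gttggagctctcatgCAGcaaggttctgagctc
Grik3: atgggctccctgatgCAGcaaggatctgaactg
Grik4: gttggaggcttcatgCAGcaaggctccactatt
Grik5: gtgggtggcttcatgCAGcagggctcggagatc
The codon was CAG in 8 genes and CAA in Gria4, and both encode glutamine. Windows of 2 AMPA genes shared 28 to 31 of 33 bases, and windows of 2 kainate genes shared 19 to 30. Gria2 and Gria3 were the closest AMPA pair with 31, and Grik1 and Grik2 the closest kainate pair with 30. The codon is residue 607 of the Gria2 protein, 636 of Grik1 and 621 of Grik2, counted from the start codon. UMI counts per gene hold neither the edited base nor the flip and flop splice forms, so editing and splicing were not analysed here.

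The windows lie in coding exons. That of Gria1 is chr11:57243079-57243111 on the plus strand, in exon 11 of 16, and that of Gria2 is chr3:80706896-80706928 on the minus strand, also in exon 11 of 16. Those of Gria3 (chrX:41610250-41610282, plus strand, exon 11 of 16) and Gria4 (chr9:4464122-4464154, minus strand, exon 12 of 17) lie likewise inside 1 exon. So do those of Grik4 (chr9:42547608-42547640, minus strand, exon 14 of 19) and Grik5 (chr7:25022482-25022514, minus strand, exon 15 of 20). In Grik1, Grik2 and Grik3 the window crosses an exon junction. Annotated gene lengths ran from 62.5 kb for Grik5 to 694 kb for Grik2, and levels are compared below between clusters for 1 gene, not between genes, unless scaled per kb. No gene on the opposite strand overlapped a member in the annotation. Grik2 overlapped the same-strand transcripts Gm26543 and Gm47018, which held 48 and 19 UMIs in neuronal nuclei.

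Levels differed widely between clusters for 7 of the 9 genes. Gria1, Gria2 and Grik4 were highest in cluster 4 and lowest in cluster 3. Gria3 and Grik3 were highest in cluster 1, and Grik1 and Grik2 were highest in cluster 0. Gria4 and Grik5 were nearly level. For those 7 genes the highest cluster was at least 2-fold the lowest and the 3 libraries of those clusters did not overlap. Of 9111 genes with at least 100 neuronal UMIs, 37.2% met the same rule, and the median log2 ratio of highest over lowest cluster was 1.16 for the members and 0.87 for all of these genes. Clusters were made by the authors from the genes of the same nuclei, so these differences are a description with no test.

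**Figure D1:**
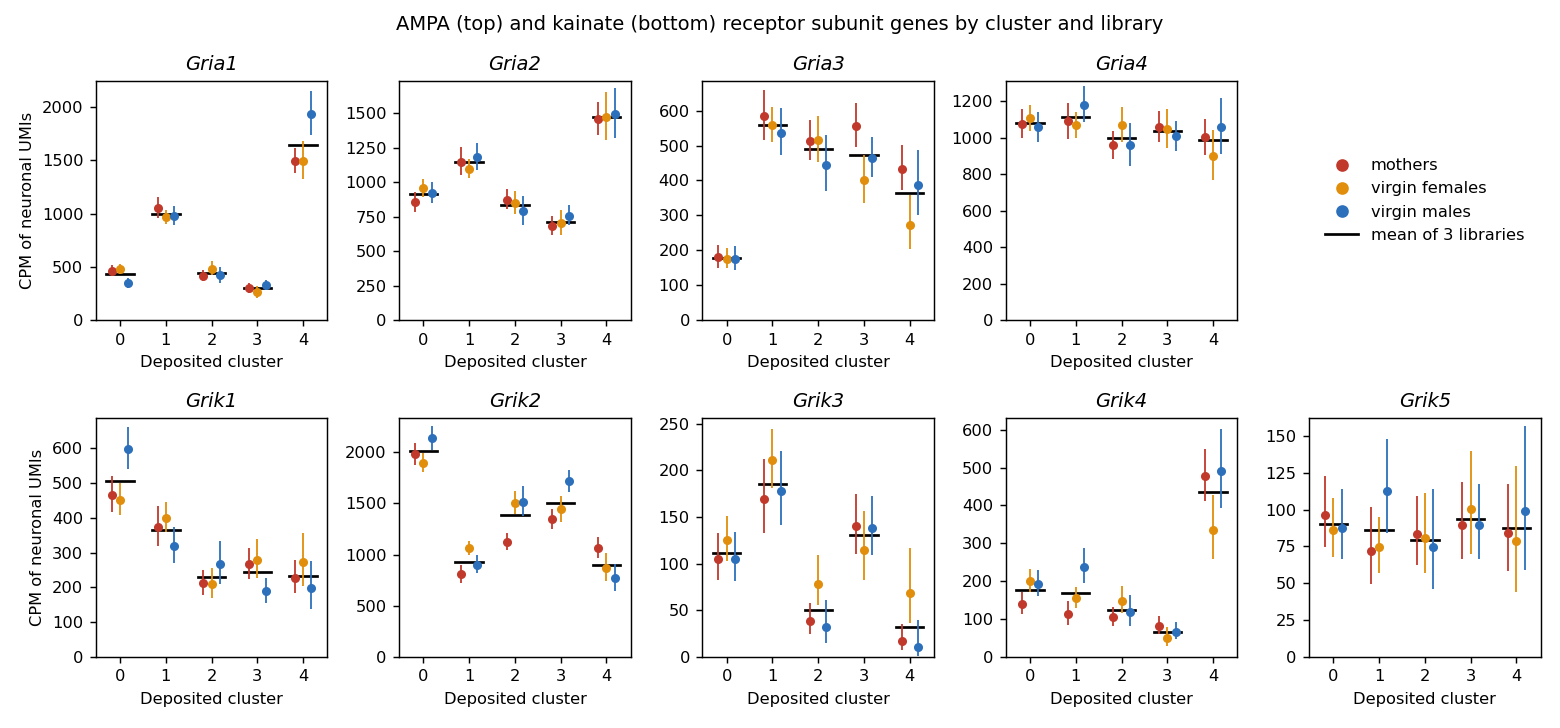
Level (CPM of neuronal UMIs, linear axes from 0) of each subunit gene in clusters 0 to 4, with 1 point per library, exact Poisson 95% intervals as vertical lines and the mean of the 3 libraries as a black bar. Gria1 and Grik4 stand highest in cluster 4, Gria3 stands lowest in cluster 0, and Gria4 and Grik5 run flat.

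Gria1 encodes GluA1, a subunit whose homomers are permeable to calcium and whose delivery to synapses is regulated by activity. In cluster 4 Gria1 stood at 1495 CPM in mothers, 1492 in virgin females and 1934 CPM in virgin males. Cluster 1 had 1054, 969 and 977 CPM in the same order. In cluster 0 they were 459, 482 and 346, and in cluster 2 they were 414, 482 and 419. In cluster 3 Gria1 was at 302 CPM in mothers, 262 in virgin females and 329 CPM in virgin males, the lowest of all clusters. Every library of cluster 4 lay above every library of cluster 1, and both lay above the rest, while clusters 2 and 0 overlapped. The mean of the 3 libraries was 1640.3 ± 254 CPM (SD, n = 3 libraries) in cluster 4 against 297 ± 33.7 in cluster 3, a ratio of 5.51. The thalamic marker sum was lowest in clusters 4 and 1, where Gria1 was highest, and its part in this result was not tested. Depth was also lowest there, with median UMIs per nucleus of 9431 in cluster 4 and 9894 in cluster 1 against 11465 to 15007 elsewhere. With each nucleus thinned to 5000 UMIs, Gria1 had a UMI in 69 of 69 nuclei of cluster 4 and in 69.7% of cluster 3 (exact binomial 95% interval 59.0 to 79.0%). Without thinning the shares were 75 of 75 nuclei and 91.2%.

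Gria2 encodes GluA2, the subunit that makes AMPA receptors nearly impermeable to calcium when edited. Its order of clusters was close to that of Gria1 with a smaller span. In cluster 4 Gria2 was at 1460.4 CPM in mothers, 1472 in virgin females and 1493 CPM in virgin males. Cluster 1 followed with 1149, 1099 and 1185 CPM, with no library overlapping cluster 4. Clusters 0 (856, 956 and 923 CPM) and 2 (875, 851 and 789 CPM) overlapped each other. Cluster 3 was lowest with 686, 702 and 757 CPM. The ratio of cluster 4 to cluster 3 was 2.06, and it was 1.95, below the 2-fold rule, without the 5% of nuclei with most UMIs in each library. The UMI ratio of Gria1 to Gria2 was 1.02, 1.01 and 1.30 in cluster 4 and 0.440, 0.373 and 0.434 in cluster 3 (mothers, virgin females, virgin males).

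Gria3 encodes GluA3, which pairs with GluA2 in many forebrain and thalamic neurons. In cluster 0 Gria3 was at 181 CPM in mothers, 175 in virgin females and 176 CPM in virgin males, under every other value of the gene. In cluster 1 it was at 583, 559 and 537 CPM, above every library of clusters 0, 2 and 4. Clusters 2 (514, 515 and 444 CPM), 3 (555, 399.9 and 465 CPM) and 4 (433, 272 and 386 CPM) followed, and the mothers' library of cluster 3 lay within the range of cluster 1. The mothers' library was the highest in clusters 3 and 4 and the virgin female library the lowest. The ratio of cluster 1 to cluster 0 was 3.16. After thinning, a UMI of Gria3 was found in 46.8% of 154 nuclei of cluster 0 and in 73.9% to 83.1% of those of the other 4 clusters. Without thinning the shares were 61.6% in cluster 0 and 76.4% to 96.7% in the others.

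Gria4 encodes GluA4, the subunit known for fast gating and for its use at thalamic synapses. It varied little: its 15 values by cluster and library ran from 901 CPM in virgin females of cluster 4 to 1183 in virgin males of cluster 1. Cluster means ran from 987 to 1114 CPM, a ratio of 1.13, and every pair of neighbours in the order overlapped. The libraries of the highest and lowest clusters, 1 and 4, did not overlap. The even level held although the thalamic marker sum ranged from 1000.2 to 10994 CPM over the same nuclei.

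Grik2 encodes GluK2, a subunit of most kainate receptors in the brain. In cluster 0 Grik2 was at 1984 CPM in mothers, 1899 in virgin females and 2139 CPM in virgin males, above every other value of the gene. In cluster 3 it was at 1345, 1441 and 1719 CPM and in cluster 2 at 1127, 1504 and 1517, and these clusters overlapped. In cluster 1 it was at 806, 1062 and 901 CPM and in cluster 4 at 1062, 869 and 766, which overlapped each other and lay under the rest. The ratio of cluster 0 to cluster 4 was 2.23. Grik2 was thus lowest in the clusters in which Gria1 was highest. Over the 15 cluster-by-library sums, Pearson's r of log2(CPM + 10) was -0.80 between Gria1 and Grik2, a description of sums that share 3 libraries.

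Grik1 encodes GluK1, another edited kainate subunit. In cluster 0 Grik1 was at 467 CPM in mothers, 452 in virgin females and 599 CPM in virgin males. Cluster 1 came next with 374, 401 and 318 CPM, below all of cluster 0. Clusters 3 (266, 279 and 189 CPM), 4 (228, 272 and 198 CPM) and 2 (212, 209.5 and 266 CPM) overlapped and all lay below cluster 1. The ratio of cluster 0 to cluster 2 was 2.21.

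Grik3 encodes GluK3, a kainate subunit of low glutamate sensitivity. In cluster 1 Grik3 was at 169 CPM in mothers, 211 in virgin females and 178 CPM in virgin males. Clusters 3 (140.1, 115 and 138 CPM) and 0 (105, 125 and 105 CPM) overlapped below it. In cluster 2 it was at 38.5, 78.6 and 32.0 CPM, and in cluster 4 at 17.3, 68.1 and 11.0 CPM, which rest on 7, 13 and 2 UMIs. The virgin female library was the highest in both of these clusters, and it lay apart from the other 2. The ratio of cluster 1 to cluster 4 was 5.78 and was 12.2 without the virgin female library. In single nuclei, 10 of 75 nuclei of cluster 4 had a UMI of Grik3, and 1 of them held 22.7% of the cluster's Grik3 UMIs. After thinning, a UMI was found in 13.0% of nuclei of cluster 4 and 52.8% of cluster 1, beside 13.3% and 62.4% without thinning. By library (mothers, virgin females, virgin males) the thinned shares were 6.25%, 27.8% and 10.5% in cluster 4. They were 51.5%, 50.9% and 56.8% in cluster 1.

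Grik4 encodes GluK4, which needs a low-affinity partner to form a channel. In cluster 4 Grik4 was at 478 CPM in mothers, 335 in virgin females and 490.3 CPM in virgin males, above every other value. Clusters 0 (140.1, 200.4 and 193 CPM), 1 (113, 156 and 238 CPM) and 2 (104, 148 and 117 CPM) overlapped from one to the next. In cluster 3 it was at 80.8, 48.9 and 66.5 CPM, below all other clusters. The ratio of cluster 4 to cluster 3 was 6.64. After thinning, a UMI of Grik4 was found in 81.2% of nuclei of cluster 4 and 27.0% of cluster 3, beside 92.0% and 48.4% without thinning. By library (mothers, virgin females, virgin males) the thinned shares were 84.4%, 72.2% and 84.2% in cluster 4. They were 29.4%, 29.4% and 23.7% in cluster 3. The UMI ratio of Grik4 to Grik2 was 0.450, 0.386 and 0.640 in cluster 4 and 0.0601, 0.0339 and 0.0387 in cluster 3, in the same order of libraries.

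Grik5 encodes GluK5, the other high-affinity subunit. It was even, from 72.1 CPM in mothers of cluster 1 to 113 in virgin males of the same cluster, so that 1 cluster held both extremes. Cluster means ran from 79.6 to 93.2 CPM, a ratio of 1.17. Neighbouring clusters all overlapped, while the libraries of the highest and lowest, clusters 3 and 2, did not.

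Set against the mean of the other 4 clusters and asked of every library, a 1.5-fold difference was met by 4 members in cluster 0, with Gria1 and Gria3 lower and Grik1 and Grik2 higher. It was met by Grik3 (higher) in cluster 1, by Gria1 and Grik3 (lower) in cluster 2, and by Gria1 and Grik4 (lower) in cluster 3. In cluster 4 it was met by Gria1, Gria2 and Grik4 (higher) and Grik3 (lower). In cluster 4 Grik4 was 2.42 to 4.36 times and Gria1 2.68 to 3.73 times the mean of the other clusters, over the 3 libraries. In cluster 0 Gria3 was 0.347 to 0.401 times it. Of the 9111 genes, the rule was met by 9.87% in cluster 0, by 12.7% in cluster 1 and by 7.40% in cluster 2. It was met by 14.0% in cluster 3 and 12.5% in cluster 4.

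The authors gave nuclei of cluster 1 the subtype labels LHb2 and LHb4. Gria1 was at 919, 900.0 and 872 CPM in LHb2 nuclei and at 1280.4, 1097 and 1097 CPM in LHb4 nuclei of mothers, virgin females and virgin males, so each library was higher under LHb4. Grik4 was also higher under LHb4 in each library (150.3, 191 and 279 CPM against 90.1, 136 and 203). Grik5 was higher too, by little in mothers (72.13 against 72.05 CPM). Grik2 was lower under LHb4 in each library (631, 1026 and 781 CPM against 911, 1082 and 1006). Grik3 under LHb4 was at 168, 366 and 186 CPM against 169, 127 and 170.4 under LHb2. For Grik3 only the virgin female library parted the labels by more than 1.5-fold. Gria2, Gria3, Gria4 and Grik1 had no common direction over the libraries. No share over all genes is given for this split.

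The level of all AMPA subunit genes together was 4391, 4137 and 4870 CPM in cluster 4 and 3877, 3695 and 3882 in cluster 1. It was 2411 to 2920 CPM in clusters 0, 2 and 3. The kainate sum had another order, with 2793, 2763 and 3124 CPM in cluster 0 and 1534 to 2202 CPM in the other clusters. Cluster 0 was the one cluster in which kainate UMIs exceeded AMPA UMIs in each library. Sums run over genes of unequal length, so this is a statement about UMIs and not about receptor numbers. Fewer transcripts per nucleus and fewer nuclei with the gene cannot be told apart in such sums.

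The subunit mix, the share of a family's UMIs that falls to each gene, shifted accordingly. Gria1 took 34.0%, 36.1% and 39.7% of AMPA UMIs in cluster 4 (mothers, virgin females, virgin males) and 27.2%, 26.2% and 25.2% in cluster 1. It took 11.6%, 10.9% and 12.8% in cluster 3. The means of clusters 4 and 3 were 24.8 percentage points apart, with an SD of 2.23 over libraries, and 15.9 points apart when UMIs were divided by annotated gene length. Gria3 took 18.7% in cluster 3 and 17.7% in cluster 2 on average, against 6.83% in cluster 0 and 8.12% in cluster 4. Gria4, flat as a level, ranged as a share from 22.1% in cluster 4 to 41.6% in cluster 0, while Gria2 stayed between 28.4% and 35.1%. Per kb of gene, Gria2 took the largest AMPA share in every cluster, 52.3% to 60.8% on average.

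**Figure D2:**
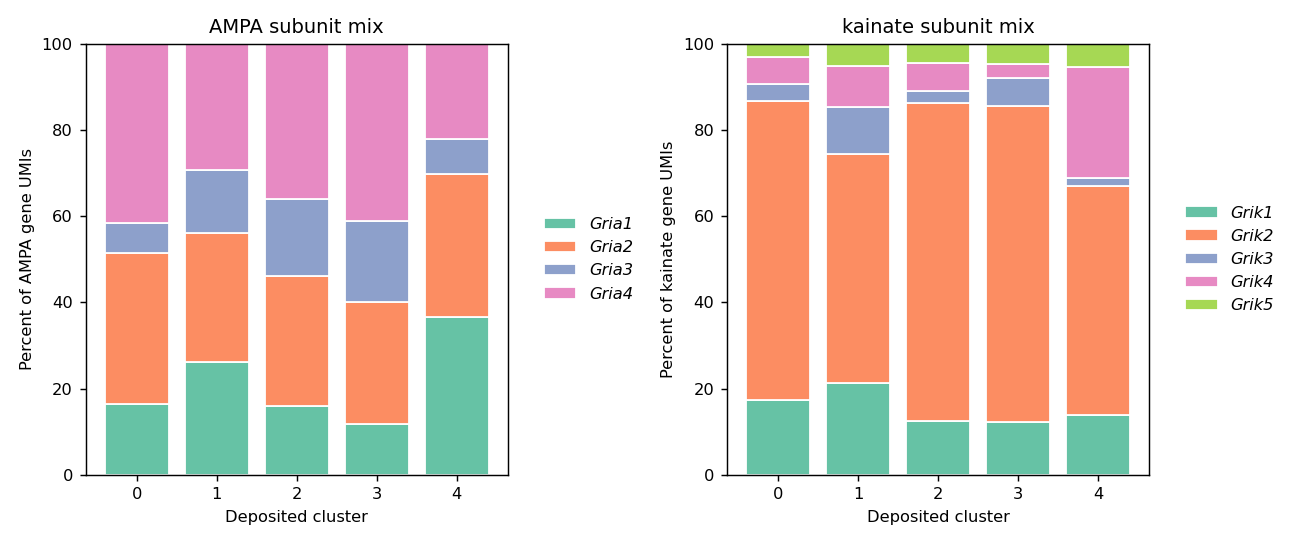
Share (percent, stacked from 0 to 100) of the AMPA UMIs (left) and kainate UMIs (right) taken by each gene in clusters 0 to 4, as the mean of the 3 libraries. Gria1 takes 36.6% in cluster 4 and 11.8% in cluster 3, and Grik4 takes 25.8% in cluster 4 and 3.23% in cluster 3.

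In the kainate family Grik2 took on average 69.4%, 74.0% and 73.6% of UMIs in clusters 0, 2 and 3. It took 53.3% in cluster 1 and 53.1% in cluster 4. The remainder differed between those last 2 clusters. Grik4 took 25.6%, 20.6% and 31.3% in cluster 4, and 7.34%, 8.17% and 13.6% in cluster 1. Grik1 and Grik3 took on average 21.2% and 10.8% in cluster 1, and 13.9% and 1.94% in cluster 4. Per kb of gene, Grik2 took 27.4% to 45.5% and Grik5, the shortest gene, 22.1% to 31.5%. On that scale the mean Grik5 share exceeded that of Grik2 in cluster 1 (28.2% against 27.4%) and cluster 4 (31.5% against 29.1%). The libraries did not share this. In cluster 1 Grik5 took more only in virgin males (34.3% against 24.7%), and Grik2 took more in mothers and virgin females. In cluster 4 Grik5 took more in virgin males (36.1% against 25.1%) and Grik2 in mothers (32.9% against 28.9%). Virgin females were about level there (29.3% for Grik5, 29.2% for Grik2). Grik2 took more than Grik5 in clusters 0, 2 and 3. The sources used here do not state whether intronic reads were counted, which bears on any such scaling.

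Within clusters nuclei varied widely. In cluster 4 every one of 75 nuclei had 4 to 67 UMIs of Gria1, with a median of 14, and quartiles of 1056 and 2028 CPM. In cluster 0 the median nucleus had 4 Gria1 UMIs. For Gria3 in cluster 0, 106 of 172 nuclei had a UMI and the highest nucleus reached 1234 CPM. The richest nucleus held 5.40% of the Gria1 UMIs of cluster 4 and 5.78% of its Grik4 UMIs. Outside the neurons, the 5 nuclei annotated as ependymal, with a median of 6275 UMIs, had no UMI of Gria2, Gria3, Gria4, Grik1, Grik3 or Grik5, and 1 of them had a Gria1 UMI. A count of 0 there allows up to 51.3 CPM. The same 5 nuclei held Grik4 at 188 CPM, from 11 UMIs in 3 nuclei, and Grik2 at 137 CPM, from 8 UMIs in 3 nuclei. That Grik4 level lay above the gene's neuronal means in clusters 0 to 3, and whether free RNA or the nuclei themselves gave these UMIs was not tested.

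**Figure D3:**
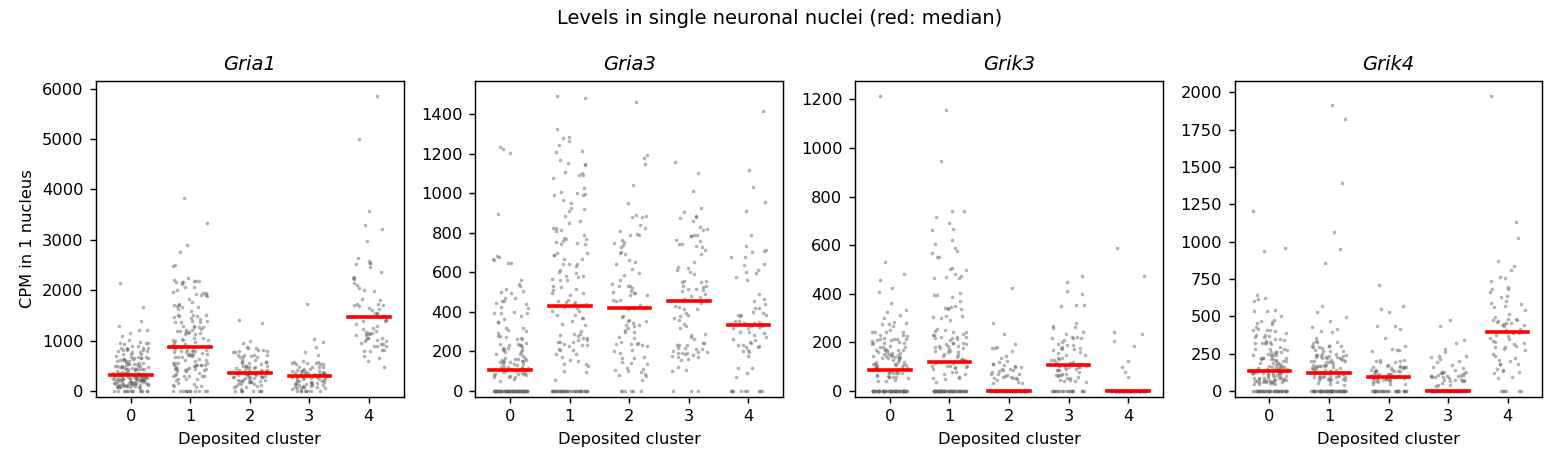
Level in single neuronal nuclei (CPM of the nucleus, 1 grey point each, linear axes) of Gria1, Gria3, Grik3 and Grik4 by cluster, with the median in red. All nuclei of cluster 4 lie above 0 for Gria1, and the median of Grik3 is 0 in clusters 2 and 4.

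Genes whose products bind, anchor, organise or edit these receptors were followed in a list of 32, of which 28 had at least 100 UMIs. Of these 28, 20 met the same 2-fold rule between clusters, which 37.2% of all tested genes met. By role these were 9 of 12 AMPA auxiliary genes, 1 of 2 kainate auxiliary genes, 5 of 8 scaffold and trafficking genes, 3 of 3 extracellular partners and 2 of 3 RNA editing genes. The list was written with earlier results of these data known.

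Among AMPA auxiliary genes, Shisa6, whose product limits receptor desensitisation, was at 404 CPM in cluster 1 and 456 in cluster 3 on average, against 27.4 in cluster 0. Shisa9, of the same family, was lowest in cluster 1 with 292 CPM and highest in cluster 3 with 1235. The TARP genes, which encode transmembrane AMPA receptor regulatory proteins, did not share an order. Cacng3 was at 146 CPM in cluster 0 and 18.7 in cluster 3, Cacng5 was at 74.3 in cluster 3 and 6.95 in cluster 1, and Cacng8 was at 75.4 in cluster 4 and 24.9 in cluster 3. Cacng2, which encodes stargazin, ran from 102 to 187 CPM and did not meet the rule. Syndig1 (246 CPM) and Gsg1l (44.1 CPM), which encode further AMPA receptor partners, had their highest means in cluster 4, as Gria1 and Gria2 did. Gsg1l there rests on 16, 4 and 13 UMIs (mothers, virgin females, virgin males). In virgin females Gsg1l was higher in cluster 2 (24.0 CPM) than in cluster 4 (20.9 CPM).

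Neto1, which encodes a kainate receptor auxiliary protein, was at 149, 78.6 and 143 CPM in cluster 4 and at 14.4, 14.4 and 8.74 in cluster 3 (mothers, virgin females, virgin males). Its highest and lowest clusters were those of Grik4. Neto2 had a ratio of 1.97 and did not meet the rule. Grip1, which encodes a scaffold that binds GluA2 and GluA3, was highest in clusters 4 (1291 CPM) and 1 (1156 CPM). Dlg2, which encodes PSD-93, was at 3078 CPM in cluster 1 and 1362 in cluster 3.

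Of the 3 extracellular partners tested, C1ql3 and Nptxr were highest in cluster 0. C1ql3, a secreted C1q-like protein of a family that binds kainate receptors, was at 262, 254 and 415 CPM in cluster 0 and at 29.7 CPM or less in every other cluster and library. Nptxr, the neuronal pentraxin receptor, which clusters AMPA receptors, was at 304, 318 and 449 CPM in cluster 0 and at 56.9 CPM or less elsewhere. Nptx2, a secreted pentraxin, averaged 29.3 CPM in cluster 3 and 28.5 in cluster 0, against 0.825 in cluster 4, where it had 1 UMI. Cluster 0 was also the cluster with the highest Grik1 and Grik2 and the lowest Gria3.

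Adarb1, which encodes the enzyme that edits the Q/R codon shown above, was at 774, 846 and 743 CPM in cluster 3 and 488, 661 and 458 in cluster 2. It was at 331, 319 and 297 CPM in cluster 0, at 198, 182 and 165 in cluster 1, and at 168, 94.3 and 88.1 in cluster 4. Adarb1 was thus lowest in the cluster with the highest Gria2 and highest in the cluster with the lowest. Adarb2, which encodes a related protein without known editing activity, had means of 2302 CPM in cluster 3, 1471 in cluster 2 and 69.7 in cluster 4. Adar ran from 93.8 to 152 CPM and did not meet the rule. No editing level follows from these counts.

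**Figure D4:**
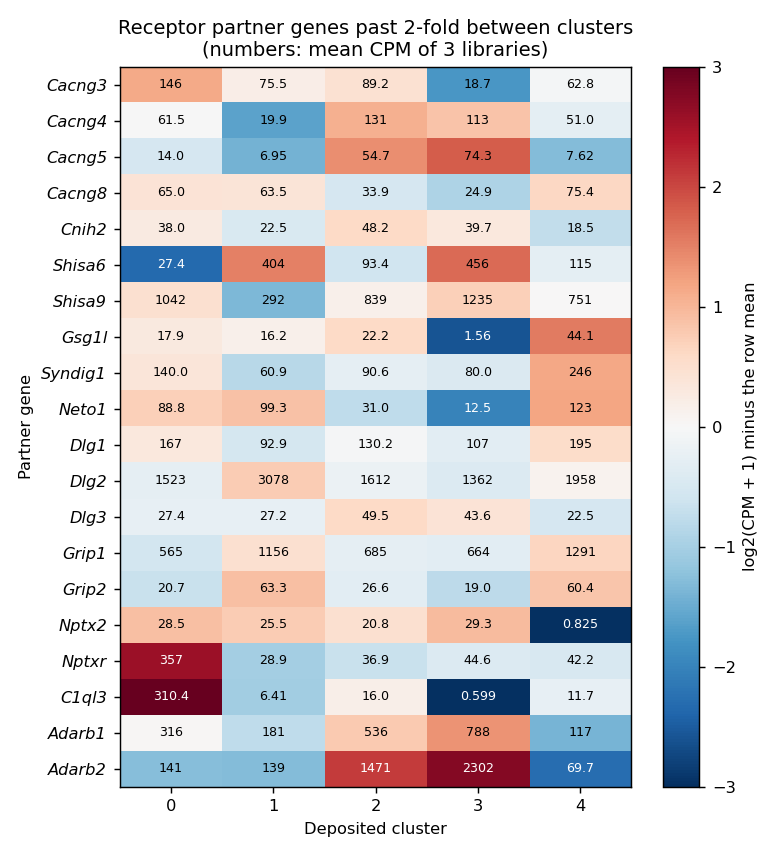
Mean level of the 20 partner genes past 2-fold between clusters (printed numbers, CPM, mean of 3 libraries), coloured by log2(CPM + 1) minus the mean of the row. Cluster 0 stands out for Nptxr and C1ql3, and clusters 2 and 3 for Adarb1 and Adarb2.

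By Pearson's r over the 15 cluster-by-library sums, among 2896 genes with at least 500 UMIs, the gene most like Gria1 was Ryr2 (r = 0.97), the gene of an intracellular calcium release channel. Afdn (0.96) and Inpp5f (0.95) followed. Gria2 was most like A230057D06Rik (0.96) and Ryr2 (0.96), Gria3 like Thsd7a (0.92) and Grik4 like Ptprt (0.95). Grik2 was most like Fgf13 (0.94) and Tox (0.94), Grik1 like Ror1 (0.89) and Grik3 like Col25a1 (0.88). For the flat genes the highest values were smaller, 0.84 for Gria4 with Tbl1x and 0.78 for Grik5 with Zfr. Among the members themselves, r was 0.97 for Gria1 with Gria2 and 0.89 for Gria2 with Grik4. These sums share libraries and the clusters' composition, and no p is given.

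Between libraries, over all neuronal nuclei, no member differed by 1.5-fold or more in any of the 3 comparisons. Of genes with at least 50 UMIs in the pair, 7.49% did so for mothers against virgin females, 7.56% for virgin males against virgin females and 7.27% for mothers against virgin males. With only 9 members, the absence of a call is near those shares. The median size of the log2 ratio was 0.06, 0.11 and 0.15 for the members in those comparisons, and 0.18 for all genes in each. Members and other genes were not matched for UMIs, so these medians are not compared like for like. Grik5, the member with fewest, had 197 to 232 UMIs per library, and other genes needed 50 in a pair. The comparisons share libraries and are not independent of each other.

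Among AMPA genes, Gria1 was at 669.9 CPM in mothers, 677 in virgin females and 624 CPM in virgin males. Gria2 was at 964, 987 and 966 CPM, and Gria4 at 1037, 1067 and 1059. Gria3 was at 439.5 CPM in mothers, 388 in virgin females and 386 CPM in virgin males. The ratio of mothers to virgin females was 1.13 for Gria3 (exact conditional 95% interval 1.04 to 1.23, counting error only), and to virgin males 1.14 (1.04 to 1.25). Such intervals leave out variation between mice and preparations, so an interval that leaves out 1 is no sign of a difference between the groups.

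Among kainate genes, Grik3 had the widest ratio. It was at 94.4 CPM in mothers, 139 in virgin females and 112 CPM in virgin males, and the ratio of mothers to virgin females was 0.680 (0.578 to 0.800). With each library standardised to the same mix of the 5 clusters it was 0.803. With nuclei weighted equally the ratio was 0.641, past 1.5-fold. Grik2 was at 1321 CPM in mothers, 1441 in virgin females and 1557 CPM in virgin males, a ratio of 0.848 (0.809 to 0.890) for mothers against virgin males. Grik1 was at 315, 361 and 349 CPM, Grik4 at 166, 168 and 184 CPM, and Grik5 at 86.2, 82.8 and 92.8 CPM.

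**Figure D5:**
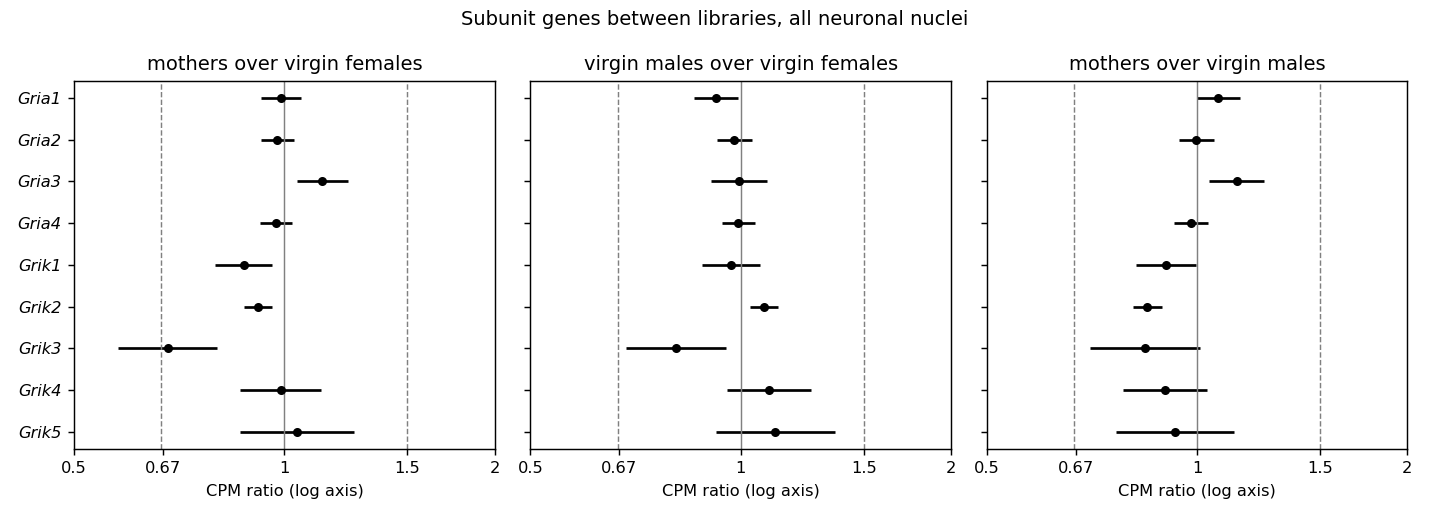
CPM ratio (log axis) of each subunit gene between pairs of libraries over all neuronal nuclei, with exact conditional binomial 95% intervals for counting error as lines, a solid line at 1 and dashed lines at 1.5-fold in either direction. All 27 ratios lie inside the dashed lines, and that of Grik3 in mothers over virgin females, 0.680, lies nearest to one.

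Within clusters the depth was lower. Among gene-cluster pairs with at least 50 UMIs in the 2 libraries, 3 of 43 member pairs were past 1.5-fold for mothers against virgin females, beside 13.2% of all such pairs of all genes. They were Gria3 in cluster 4 (1.59, 1.16 to 2.21), Grik3 in cluster 2 (0.490, 0.280 to 0.845) and Grik4 in cluster 3 (1.65, 0.928 to 3.08). For virgin males against virgin females they were 2 of 42, beside 12.3%, and for mothers against virgin males 2 of 43, beside 13.5%. Both times these were Grik4 and Grik5 in cluster 1, where the virgin male library was high.

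In that cluster Grik4 was at 238 CPM in virgin males, 156 in virgin females and 113 in mothers, and Grik5 at 113, 74.3 and 72.1. The summed level of 4 ependymal and choroid markers reached 1592 CPM in the virgin male library of cluster 1, against 11.0 CPM or less in every library of the other clusters. The 5 nuclei annotated as neurons in which non-neuronal markers made up at least 0.5% of UMIs were all in that library and cluster. Without them, a comparison added after seeing the data, Grik4 was at 249 CPM and Grik5 at 113 in virgin males of cluster 1. Whether transcripts of other cells bear on the levels there was not tested.

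Of the 29 partner genes with at least 50 UMIs in mothers and virgin females, 1 was past 1.5-fold, beside 7.49% of all genes tested in that comparison. It was Cnih3, which encodes a cornichon auxiliary protein of AMPA receptors. It was at 17.1 CPM in mothers, 9.20 in virgin females and 11.3 CPM in virgin males, from 46, 25 and 24 UMIs, a ratio of 1.86 (1.12 to 3.16) for mothers over virgin females. Of 28 tested for virgin males against virgin females 1 was past it, beside 7.56% of all genes. This gene, Nptx2, was at 17.9 against 26.9 CPM, a ratio of 0.667 (0.438 to 1.00). For mothers against virgin males 4 of 29 were past it, beside 7.27% of all genes. Cnih3 was at 1.51 (0.904 to 2.59), Shisa7 at 0.603, Nptxr at 0.634 and C1ql3 at 0.607. Within cluster 0 alone, Nptxr was at 304 CPM in mothers against 449 in virgin males, which is short of 1.5-fold. C1ql3 was at 262 against 415 there, still past it. Cluster 0 made up 47 of 201 neuronal nuclei of mothers and 64 of 204 of virgin males. The part of that unequal share in these ratios was not tested.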

How the data were processed

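Transcripts of sorted nuclei were counted in 3 libraries of the 10x Chromium 3′ assay, 1 per group of 3 pooled mice, per the labels' protocols. The authors deposited raw UMI counts per gene and nucleus, and a table of nuclei with library, broad class, subtype label and cluster. Cell Ranger 5.0.1 and the build GRCm38 (mm10) are named in the submitters' processing notes. The sources used here do not give intron counting, nucleus filters or the treatment of doublets, and no doublet caller was run. The tables were joined by total UMIs and number of genes with a UMI, a pair unique for all 603 nuclei. Columns of no sample numbered 0.

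UMIs were summed per cluster and library and scaled to 1000000 (CPM). Neuronal nuclei held 2691639, 2718356 and 2122919 UMIs (mothers, virgin females, virgin males), and 181536 to 873414 per cluster and library. Intervals are 95%, exact Poisson for CPM and conditional binomial for ratios, and cover counting error only, without variation between nuclei or mice. Shares of nuclei and of UMIs are given without intervals, apart from the exact binomial interval for Gria1 in thinned nuclei of cluster 3. A count of 3 UMIs served as the floor for a count of 0. Gene minimums were 50 UMIs for a pair of libraries and 100 for clusters. The ratio script was tested on simulated data. Thinning to 5000 UMIs left out 59 nuclei (14 of mothers, 15 of virgin females, 30 of virgin males) and kept 533. Python 3.11.15, numpy 2.4.6, pandas 2.3.3, scipy 1.17.1 and matplotlib 3.10.9 were used.

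All 9 members are named. The 3 genes most like a member by r, and partner genes past the rule between clusters or libraries, were named by rule and given in part. Members, gene lists and rules were chosen with earlier results of these data known. Alternatives covered the weighting and thinning of nuclei, the deepest nuclei, the denominator, filters, thresholds, gene length, the cluster mix and each library left out. Pore-loop windows were read from the GENCODE M21 annotation and transcripts of GRCm38.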

Additional observations from a re-analysis of the deposited data

Results flagged for a closer look

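The 11 nuclei outside the neuronal class held UMIs of some members above the limit of 3 UMIs. In the 3 astrocyte nuclei (10579 UMIs) Gria1 was at 2930.3 CPM from 31 UMIs, of which 19 were in 1 nucleus, Gria2 at 662 CPM and Grik2 at 473 CPM. In the 5 ependymal nuclei (58441 UMIs) Grik2 was at 137 CPM and Grik4 at 188 CPM from 11 UMIs in 3 nuclei, while Gria2 had no UMI, which allows up to 51.3 CPM. In the 2 oligodendrocyte nuclei Grik2 was at 889 CPM from 4 UMIs, and in the 1 polydendrocyte nucleus Gria2 was at 1343 CPM from 5 UMIs.

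Some ratios between libraries lay on opposite sides of 1 in 2 clusters, with counting intervals that left out 1 on both sides. These differences between clusters were not tested, and the comparisons share libraries. For mothers over virgin females, Grik2 was at 1.22 in cluster 4 against 0.759 in cluster 1 and 0.749 in cluster 2, and Grik4 was at 1.43 in cluster 4 against 0.699 in cluster 0. For virgin males over virgin females, Gria1 was at 1.30 in cluster 4 and 0.719 in cluster 0. Grik1 was at 1.32 in cluster 0 against 0.794 in cluster 1 and 0.677 in cluster 3. Grik2 was at 1.13 in cluster 0 and 1.19 in cluster 3 against 0.848 in cluster 1. For mothers over virgin males, Gria1 was at 1.33 in cluster 0 and 0.773 in cluster 4, and Grik1 at 1.41 in cluster 3 and 0.780 in cluster 0. Grik2 was at 1.39 in cluster 4 against 0.743 in cluster 2 and 0.783 in cluster 3.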

How the results depend on the processing

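With nuclei weighted equally, 1 member (Grik3, 0.641) in place of 0 was past 1.5-fold for mothers against virgin females, and under the other alternatives run none was past it in any comparison of libraries. Per kb of gene, the Gria1 share of clusters 4 and 3 differed by 15.9 points in place of 24.8, and the Grik2 share of clusters 2 and 4 by 16.5 in place of 20.9 (18.1 between clusters 2 and 1, then the highest and lowest). Leaving out each library in turn, 7 members stayed past 2-fold between clusters. The calls of a member in a cluster against the other 4 were then 14 to 16 in place of 13. That rule asks for every library, so leaving 1 out can only add calls. Under the other alternatives the calls were 11 to 13. With each library left out, the Gria1 shares differed by 23.8 to 26.0 points. The Grik2 shares differed by 19.0 to 24.1 points, between whichever clusters were then highest and lowest. Of 189 member ratios between libraries under alternatives, 12 moved beyond their counting interval and 13 lay on the other side of 1 from the reported ratio, all of them of reported ratios between 0.922 and 1.07, and of 360 cluster means 31 moved by more than the SD over libraries. Leaving out the 5 nuclei with non-neuronal markers, chosen after seeing the data, changed none of these counts. The causes were not tested. No paired analysis was possible because each group had 1 library, and for the same reason no library could be left out of a comparison between libraries. The mix was not rerun without Malat1, which leaves shares unchanged. Depth limits Grik3 in cluster 4 most, with 22 UMIs in all.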
